A study of Mus musculus with 3 samples.

Results

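Among the places where YY1 was mapped in mouse cardiac progenitor cells, 2873 were stretches of the autosomes over 200 bp wide. They were found in the second of 2 sorted cell samples and had no counterpart in the first. Both lists together held 118800 intervals. The members were chosen by 2 measured values of replicate 2, the width of an interval (end minus start above 200 bp) and the lack of any overlap, even of 1 bp, with an interval of replicate 1. The score of the interval was not used. Of the 108971 replicate 2 intervals on the 19 autosomes, 2.64% met the rule. Among the 3211 that were over 200 bp wide, the other 338 overlapped an interval of replicate 1. Lacking an overlap was common to most of the list, at 107560 of those 108971 intervals, and so did not set the members apart.

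Both samples were C57BL/6 embryonic stem cells with a transgene in which Nkx2.5 drives a green fluorescent protein, differentiated as embryoid bodies for 6 days and sorted for the green cells, in 2 independent sorts. The stem cells had been grown on inactivated feeder fibroblasts before that. Each sort was taken through chromatin immunoprecipitation with an antibody to YY1, and the series also holds 1 input sample of such cells, taken without antibody, which was not analysed here. The cells therefore are those in which that transgene was active, and the lists hold no expression values by which the cell type could be checked against its markers. The study asked which genes YY1 may act on in these cells. Replicate 1 held 3691 intervals and replicate 2 held 115109, so most places of replicate 2 could have no counterpart in the shorter list. The number of reads behind either list is unknown, and the widths, scores and neighbours below come from replicate 2 alone, with no replicate of their own. All intervals of shares are 95% exact binomial intervals and, like the intervals of differences, cover counting error only.

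YY1 is a zinc-finger protein that binds a short DNA sequence with the core CCAT. It can activate or repress a gene, depending on the partners it brings, among them chromatin remodelling and Polycomb complexes, and it can hold enhancers and promoters together in loops. A factor that sits on a single short site usually gives a narrow peak in such an experiment, whereas neighbouring sites, or protein spread along the DNA, can give a broader one. Whether either applies to intervals a little over 200 bp wide was not tested. The peak caller MACS marks stretches with more reads than a local background, and the score it gives grows with the strength of the call. Sequences of the intervals were not used here, because the lists follow the mm9 build and the reference sequences at hand belong to another build. For the same reason genes are not named beside the intervals.

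The members were mostly a little over the width limit and were strong calls for their list. Their median width was 267 bp, with an interquartile range of 227 to 353 bp, and the widest spanned 1541 bp. Together they covered 905 kb. In classes that run from above their lower limit up to their upper limit, 1183 members (41.2%) were 200 to 250 bp wide, 596 were 250 to 300 bp, 589 were 300 to 400 bp, 268 were 400 to 500 bp, 161 were 500 to 700 bp, 66 were 700 to 1000 bp and 10 were wider. Their scores had a median of 508, against 129 for the 104687 autosomal replicate 2 intervals of up to 200 bp without an overlap, which are called narrow replicate 2 only intervals below. The 338 wide intervals that did overlap replicate 1 scored higher still, with a median of 1183. Width and score belong to the same call, so these values describe the members and were not tested.

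The scores did not break at the width limit. Just inside it, 34 members that were 1 bp over the limit scored 69.0 to 2107, with a median of 382. Just outside it, 36 intervals of 200 bp without an overlap scored 117 to 1254, with a median of 326. The first 5 of each in list order were, inside, chr1:18104682-18104882 with a score of 643, chr1:19198645-19198845 with 160, chr1:121208430-121208630 with 235, chr1:157093342-157093542 with 159 and chr1:160389866-160390066 with 2107. Outside, they were chr1:41335763-41335962 with 241, chr1:79943019-79943218 with 741, chr1:173444985-173445184 with 300, chr10:58904998-58905197 with 159 and chr10:87794658-87794857 with 572. The scores on either side of the limit overlapped.

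Scores rose with width among the members. The median score was 357 at 200 to 250 bp, 462 at 250 to 300 bp, 660 at 300 to 400 bp, 890 at 400 to 500 bp, 1242 at 500 to 700 bp, 1741 at 700 to 1000 bp and 1914 above 1000 bp. Across the members Spearman's rho of width and score was 0.53, close to the 0.52 across the 338 wide overlapping intervals, while it was 0.07 across the narrow replicate 2 only intervals. These correlations are over intervals of 1 library and are given as descriptions. At every width the overlapping intervals scored higher, with medians of 775 against 357 at 200 to 250 bp and of 1729 against 890 at 400 to 500 bp. Per base the members had a median of 1.80 score units per bp, against 3.46 in the wide overlapping intervals and 2.14 in the narrow replicate 2 only ones. Because width is both in the rule and the divisor, these values do not rank the narrow intervals above the members in strength.

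**Figure D1:**
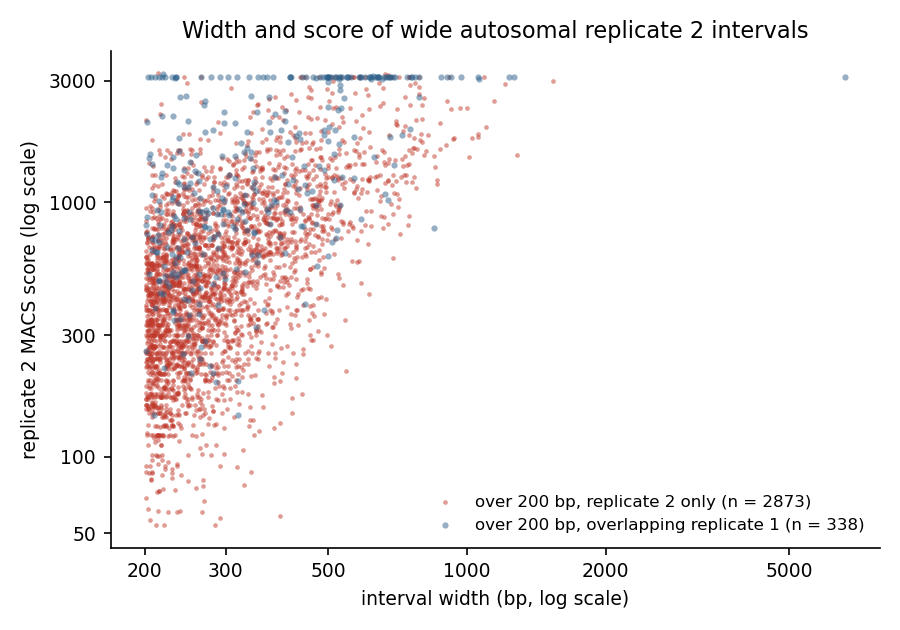
Width (bp, log scale) against the replicate 2 MACS score (log scale) of the autosomal replicate 2 intervals over 200 bp, 1 point per interval: 2873 without a replicate 1 overlap and 338 with one. Scores rise with width in both, the points without an overlap lie lower at a given width, and many points with an overlap lie on the line of equal scores at 3100.

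Many members had a score of their own. In 1206 of them (42.0%) no other replicate 2 interval had the same score, and 6.13% had a score that at least 100 intervals of the list held. Among the narrow replicate 2 only intervals the order was the opposite, with 3.73% having a score of their own and 66.3% sharing a score with at least 100 intervals. Scores of their own were not particular to the members. They were held by 39.3% of the wide overlapping intervals and by 24.6% of the narrow overlapping ones. The members at the top of the list were tied again, since 24 scored exactly 3100, a value that 74 wide overlapping intervals held too, and 4 scored above it.

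The 20 members with the highest scores lay on 12 chromosomes. The strongest, chr8:63439585-63439798, was only 214 bp wide and had a score of 3202. It was followed by chr6:124222484-124223149 (666 bp, 3176), chr3:96854651-96855325 (675 bp, 3168) and chr9:120716431-120716673 (243 bp, 3110). The other 16 all scored 3100, and 8 further members with that score were left out because they were narrower. The widest of the 16 were chr15:37471338-37472426 (1089 bp), chr17:80277536-80278450 (915 bp), chr6:11290518-11291306 (789 bp), chr10:67687717-67688465 (749 bp) and chr7:86022685-86023432 (748 bp). Chromosomes 6 and 15 also held chr6:141057085-141057671 (587 bp), chr15:89919449-89920162 (714 bp) and chr15:98237922-98238504 (583 bp). The remaining 8 were chr14:77281206-77281894 (689 bp), chr12:4834966-4835646 (681 bp), chr1:23182757-23183424 (668 bp), chr8:3290319-3290919 (601 bp), chr10:74172916-74173501 (586 bp), chr9:106284753-106285322 (570 bp), chr3:137292217-137292782 (566 bp) and chr11:79604804-79605336 (533 bp). The replicate 1 interval nearest to each of the 20 lay 30368 to 1468637 bp away, with a median of 257355 bp. That was like the rest of the list, with medians of 233570 bp for all members and 254675 bp for the narrow replicate 2 only intervals.

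The widest members were strong but few of them were among the strongest. The 10 widest scored 1498 to 3100, and only chr15:37471338-37472426 was also among the 20 with the highest scores. The widest of all was chr4:111110830-111112370, at 1541 bp with a score of 2981. After it came chr12:96395655-96396938 (1284 bp, 1526), chr3:30782366-30783576 (1211 bp, 2908), chr14:9191694-9192840 (1147 bp, 2486) and chr17:85065889-85066989 (1101 bp, 1973). The others were chr18:76835990-76837046 (1057 bp, 1804), chr5:20484295-20485350 (1056 bp, 1856), chr15:71567271-71568295 (1025 bp, 1784) and chr6:23128333-23129343 (1011 bp, 1498). None of the 10 had another replicate 2 interval within 100 bp.

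The share of wide intervals that replicate 1 also found depended steeply on score. Because the overlap is part of the rule, these shares are descriptions. Among wide intervals scoring 50 to 150, 2 of 154 overlapped replicate 1 (1.30%, 0.158 to 4.61%), and among those scoring 500 to 800 it was 58 of 710 (8.17%, 6.26 to 10.4%). At 1200 to 2000 it was 59 of 329 (17.9%, 13.9 to 22.5%), at 2000 to 3000 26 of 99 (26.3%, 17.9 to 36.1%), and at 3000 or more 82 of 111 (73.9%, 64.7 to 81.8%). The 29 members in that last class are the highest-scoring wide calls of replicate 2 that no interval of replicate 1 touched. Their median width was 583 bp, but not all were broad, as the strongest was 214 bp wide.

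In each class of score between 500 and 3000, the share of wide intervals with a counterpart in replicate 1 lay below that of narrow ones, with intervals that did not overlap. At 500 to 800 it was 8.17% of the wide and 12.7% of the narrow, from 194 of 1531. At 800 to 1200 the overlapping share was 14.2% (11.3 to 17.5%) of the wide intervals and 24.6% (19.9 to 29.8%) of the narrow. At 1200 to 2000 it was 17.9% of the wide and 41.7% (30.2 to 53.9%) of the narrow, from 30 of 72, and at 2000 to 3000 the narrow share was 69.2% (38.6 to 90.9%), from 9 of only 13. At the low end of the scores the order was turned. At 150 to 300 the share was 2.01% (1.04 to 3.48%) of the wide and 0.902% (0.802 to 1.01%) of the narrow, and at 300 to 500 both were near 3.6%, with 3.63% and 3.52%.

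**Figure D2:**
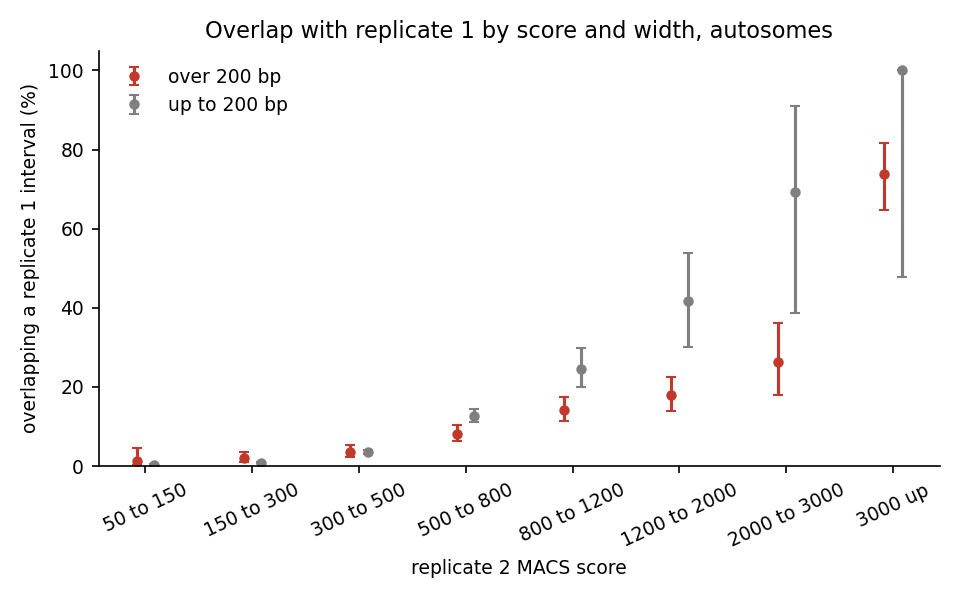
Share of autosomal replicate 2 intervals that overlap a replicate 1 interval (%, vertical axis) by class of replicate 2 score (horizontal axis), for intervals over 200 bp and up to 200 bp; bars are 95% exact binomial intervals. The wide share climbs from 1.30% to 73.9%, and between scores of 500 and 3000 it lies below the narrow share.

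Members often had another replicate 2 interval right beside them. Within 100 bp, measured from edge to edge, 486 of the 2873 members (16.9%, 15.6 to 18.3%) had a neighbour, against 4929 of 104687 narrow replicate 2 only intervals (4.71%, 4.58 to 4.84%) and 5.05% of all autosomal replicate 2 intervals. The difference from the narrow ones was 12.2 percentage points (95% Newcombe interval 10.9 to 13.6), and the share was higher in the members on each of the 19 autosomes. In the wide overlapping intervals it was 12.4% (9.10 to 16.4%), 4.49 points below the members (0.328 to 7.90), with the members higher on 13 autosomes and lower on 6.

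The surplus of neighbours lay within gaps of up to 150 bp. Gaps under 25 bp were found for 6.30% of the members and 0.940% of the narrow replicate 2 only intervals. Gaps of 25 to 50 bp followed for 6.09% and 1.68%, and gaps of 50 to 75 bp for 3.17% and 1.24%. From 75 to 100 bp the shares came closer, at 1.36% and 0.838%. From 100 to 150 bp the members were still above, at 1.88% and 1.07%, and from 150 to 200 bp the shares were 0.801% and 0.883%. Longer gaps had slightly lower shares in members, with 1.22% against 1.31% at 200 to 300 bp, 2.05% against 2.45% at 300 to 500 bp and 4.39% against 5.37% at 500 to 1000 bp. Each interval was counted once, at its nearest gap, so those with a short gap could not appear in the longer classes. The lower shares there thus do not show fewer neighbours at those distances. Over the first 1000 bp the difference in share was 11.5 points (9.86 to 13.1). It was 0.168 points (-0.402 to 0.785) where replicate 2 intervals under 500 bp apart were first merged. Merging removes the short gaps by construction and gives a different set of 6761 members, so that value does not test where the surplus lay.

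**Figure D3:**
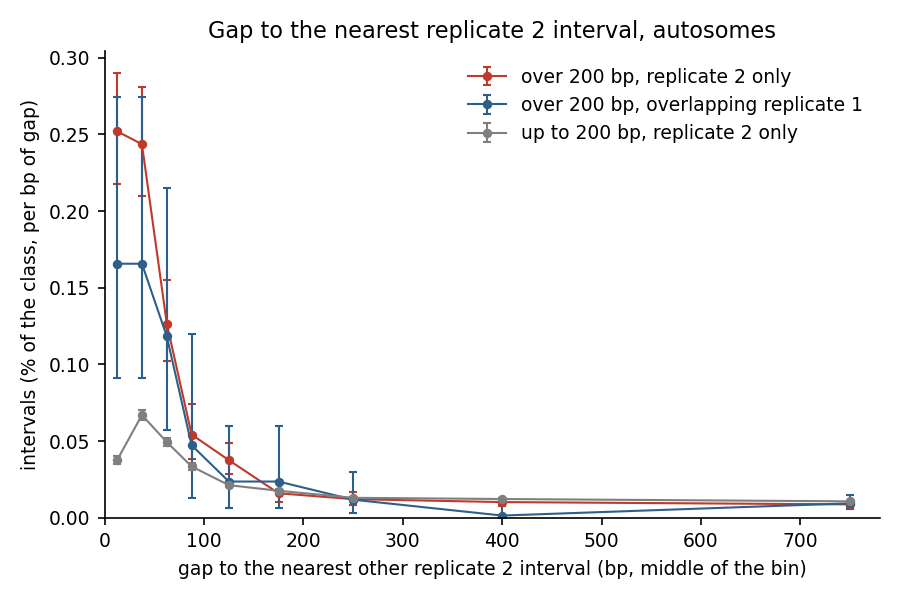
Gap in bp from each autosomal replicate 2 interval to the nearest other one (horizontal axis, plotted at the middle of the bin) against the percent of the class per bp of gap (vertical axis), for the members, the wide intervals that overlap replicate 1 and the narrow replicate 2 only intervals; bars are 95% exact binomial intervals. Members stand at about 0.25% per bp below 50 bp and come down to the narrow intervals by 200 bp.

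The neighbours were usually narrower and weaker than the member they stood beside, an order that follows largely from choosing members by width. The nearer neighbour was a narrow replicate 2 only interval in 358 of the 486 cases, another member in 115, and an interval overlapping replicate 1 in 13. Members made up 2.64% of all autosomal replicate 2 intervals. The median width of the nearer neighbour was 116 bp (interquartile range 76.2 to 200 bp). In 384 cases (79.0%) it had the lower score, with a median of 154 against 376 for the members beside it. Both medians lay above those of all narrow replicate 2 only intervals, at 60 bp and 129. The median gap was 34 bp (interquartile range 17 to 52 bp). Neighbours stood on the side of lower coordinates for 248 members and on that of higher coordinates for 286, and 48 had one on both sides. Members without such a neighbour numbered 2387 and scored higher, with a median of 550.

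Weak members had close neighbours more often than strong ones. The share with a neighbour within 100 bp was 26.3% (19.5 to 34.1%) at scores of 50 to 150, 158 of 586 (23.4 to 30.8%) at 150 to 300, 17.3% (14.5 to 20.4%) at 300 to 500, 14.0% (11.4 to 16.9%) at 500 to 800, 11.9% (9.01 to 15.2%) at 800 to 1200 and 6.67% (18 of 270) at 1200 to 2000. In the few members above that it was higher again, at 8 of 73 (4.85 to 20.5%) for scores of 2000 to 3000 and 3 of 29 (2.19 to 27.4%) for 3000 or more, with intervals that overlapped that of the class before. In the narrow replicate 2 only intervals it stayed between 4.23% and 6.44% up to a score of 1200. The difference between members and narrow intervals within a class of score thus went from 22.7 points (19.3 to 26.5) at 150 to 300 down to 5.42 points (0.680 to 9.58) at 800 to 1200. At 1200 to 2000, with 42 narrow intervals, the difference of -2.86 points (-15.6 to 3.95) did not exceed counting error.

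The close neighbours did not begin at 200 bp. Among replicate 2 only intervals the share with a neighbour within 100 bp climbed from 2.86% (2.72 to 3.00%) at widths of up to 60 bp through 7.04% (6.55 to 7.54%) at 80 to 100 bp and 12.3% (11.6 to 12.9%) at 100 to 150 bp to 17.6% (16.2 to 19.2%) at 150 to 200 bp. It was 18.5% (16.3 to 20.8%) at 200 to 250 bp, 16.8% (100 of 596) at 250 to 300 bp, 17.0% (14.0 to 20.3%) at 300 to 400 bp, 11.9% (8.31 to 16.4%) at 400 to 500 bp and 14.8% (10.5 to 19.9%) above 500 bp. Against the intervals above 150 and up to 200 bp the members differed by -0.724 points (-2.74 to 1.28) within 100 bp and by -2.54 points (-4.94 to -0.134) within 1000 bp. The surplus of close neighbours was thus not seen against the intervals just below the limit.

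**Figure D4:**
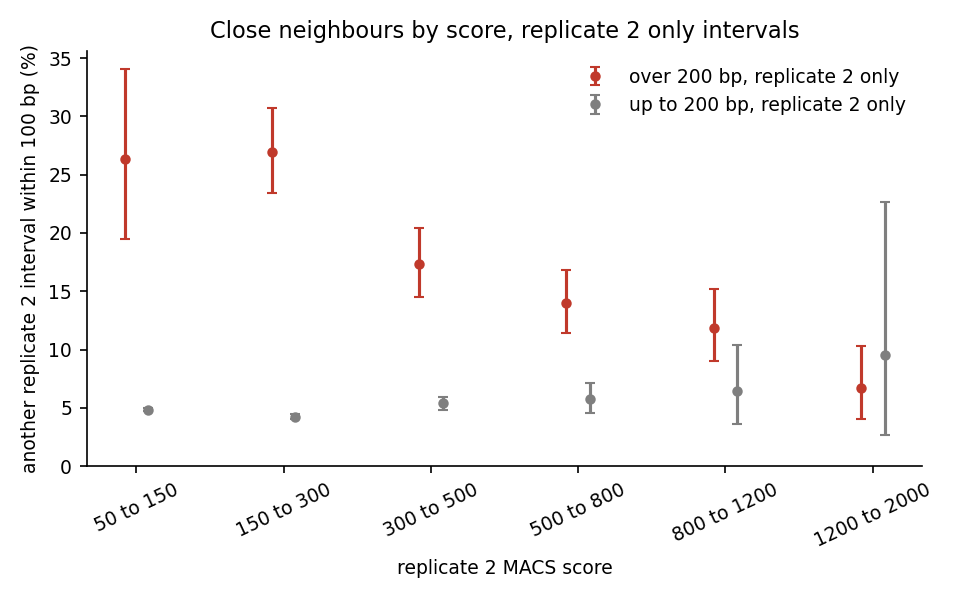
Percent of replicate 2 only intervals with another replicate 2 interval within 100 bp (vertical axis) by class of score (horizontal axis), for members and for intervals of up to 200 bp, with 95% exact binomial intervals. The share in members goes from 26.3% in the lowest class to 6.67% at 1200 to 2000, with the classes above 2000 not drawn, and in the narrow intervals it stays near 5% up to a score of 1200.

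Chained through gaps of at most 100 bp, the members formed 2798 separate stretches, of which 2387 were a lone member. Stretches of 2 or more intervals numbered 411, with a median length of 461 bp, and the longest of all was 1838 bp. Of these 411, 13 held an interval that overlapped replicate 1. Of all 108971 autosomal replicate 2 intervals, 107560 overlapped none, so such overlaps were few throughout the list. There were 65 stretches with 2 members and 5 with 3, and these 5 were singled out after their values were seen. On chromosome 6, members of 274, 354 and 589 bp stood in chr6:139888687-139889951 with breaks of 40 and 8 bp and scores of 575, 636 and 483. Chromosome 9 held chr9:45518769-45519621, with members of 236, 352 and 214 bp scoring 300, 715 and 241, and chr9:49628473-49629594, with members of 317, 258 and 449 bp scoring 179, 75 and 482. On chromosome 13, chr13:33180359-33181198 joined members of 282, 253 and 204 bp, which scored 636, 270 and 666, to a narrow interval of 56 bp. The fifth, chr18:7092604-7093669, held members of 527, 227 and 226 bp with scores of 502, 234 and 272. The stretch with most intervals, chr9:100957911-100959415, had 8 of them along 1505 bp, but a single member of 469 bp. Breaks of 1 to 72 bp thus divided these 6 stretches of 840 to 1505 bp. No interval of replicate 1 touched any of them, as was the case for most replicate 2 intervals.

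Replicate 1 rarely called anything near a member, though more often than near a narrow replicate 2 only interval. Where it did, another replicate 2 interval usually overlapped the call. Within 500 bp of 19 members (0.661%, 0.399 to 1.03%) lay a replicate 1 interval, against 231 narrow replicate 2 only intervals (0.221%, 0.193 to 0.251%) and 0.232% of all autosomal replicate 2 only intervals. The difference from the narrow ones was 0.441 points (0.201 to 0.811), with the members higher on 12 of the 19 autosomes. It was 0.190 points (-0.159 to 2.12) for members over 500 bp, and -0.0297 points (-0.0575 to 0.0497) with replicate 2 intervals under 500 bp apart merged. In 18 of the 19 cases the replicate 1 interval overlapped a second replicate 2 interval, and all 19 members had a replicate 2 neighbour within 500 bp. Merging therefore turns most of these cases into overlaps by construction, so the value after merging does not test the surplus. Counting only replicate 1 intervals that overlapped no replicate 2 interval left 1 member (0.0348%, 0.000881 to 0.194%) and 63 narrow intervals (0.0602%, 0.0462 to 0.0770%), a difference of -0.0254 points (-0.0586 to 0.137).

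The 5 members nearest to a replicate 1 interval were 17 to 83 bp away from it. They were chr17:15859690-15859922, 17 bp from a replicate 1 interval of 109 bp with a score of 84.8 in replicate 1, chr12:107120923-107121139, 39 bp from one of 126 bp, chr16:78252685-78252997, 44 bp from one of 61 bp, chr2:164011262-164011465, 61 bp from one of 37 bp, and chr14:87224855-87225151, 83 bp from one of 154 bp. In replicate 2 these 5 members scored 122, 591, 1019, 222 and 185, and each had another replicate 2 interval 9 to 45 bp away. The member without a second replicate 2 interval over the replicate 1 call was chr13:58072381-58072594, with a score of 116. At larger distances the members did not stand out. Within 10000 bp a replicate 1 interval was found for 3.10% of the members and 2.87% of the narrow intervals, a difference of 0.231 points (-0.352 to 0.937). Within 100000 bp the shares were 25.2% and 24.4%, a difference of 0.803 points (-0.773 to 2.44), and the median distances were 233570 and 254675 bp.

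Members took a larger part of the replicate 2 calls towards both ends of the chromosomes. Each autosome was cut into 10 equal stretches from its first to its last interval, and mouse chromosomes carry their centromere at the end where the numbering starts. In stretch 1, 308 of 9243 replicate 2 only intervals were wide (3.33%, 2.98 to 3.72%), and in stretch 10, 506 of 13658 (3.70%, 3.39 to 4.04%). In the 8 stretches between them it was 2059 of 84659 (2.43%, 2.33 to 2.54%), with the lowest share, 2.07% (1.81 to 2.36%), in stretch 6. Stretch 9, with 3.15% (2.85 to 3.46%), was already raised. The 2 outer stretches together exceeded the inner 8 by 1.12 points (0.867 to 1.39), or 1.46 times, and did so on 18 of the 19 autosomes. Taken alone, the difference was 0.900 points (0.537 to 1.30) for stretch 1, on 17 autosomes, and 1.27 points (0.951 to 1.62) for stretch 10, on 16.

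Density went the same way for members and, more mildly, for all calls at the far end. Members numbered 1.28 per Mb in stretch 1, 0.891 in stretch 6 and 2.10 in stretch 10, while all replicate 2 only intervals numbered 38.3, 43.0 and 56.6 per Mb. Near the centromere the members were therefore denser although all calls were thinner. The scores of narrow intervals differed little between the outer and inner stretches, as 7.60% of them scored 300 or more in the outer and 7.38% in the inner, a difference of 0.223 points (-0.164 to 0.621). Intervals above 150 and up to 200 bp had a larger share at the ends too, with 3.04% of the narrow intervals in the outer stretches and 2.30% in the inner, a difference of 0.741 points (0.499 to 0.996). So did the wide intervals that overlapped replicate 1, at 0.430% and 0.278% of all replicate 2 intervals, a difference of 0.153 points (0.0675 to 0.251). Within classes of score the wide share at the ends was 2.46% against 1.59% for scores of 150 to 300 (0.869 points, 0.497 to 1.28), 12.0% against 9.09% for scores of 300 to 500 (2.90 points, 1.16 to 4.79) and 38.9% against 30.8% for scores of 500 to 800 (8.07 points, 3.19 to 13.1). The differences at scores of 50 to 150 (0.0739 points, -0.0159 to 0.186) and of 800 to 1200 (8.07 points, -0.0298 to 15.5) did not exceed counting error. Neither did those between members at the ends and elsewhere, with 18.9% against 19.3% scoring 1000 or more and 18.9% against 16.1% having a neighbour within 100 bp, differences of -0.362 points (-3.45 to 2.92) and 2.79 points (-0.237 to 6.01).

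**Figure D5:**
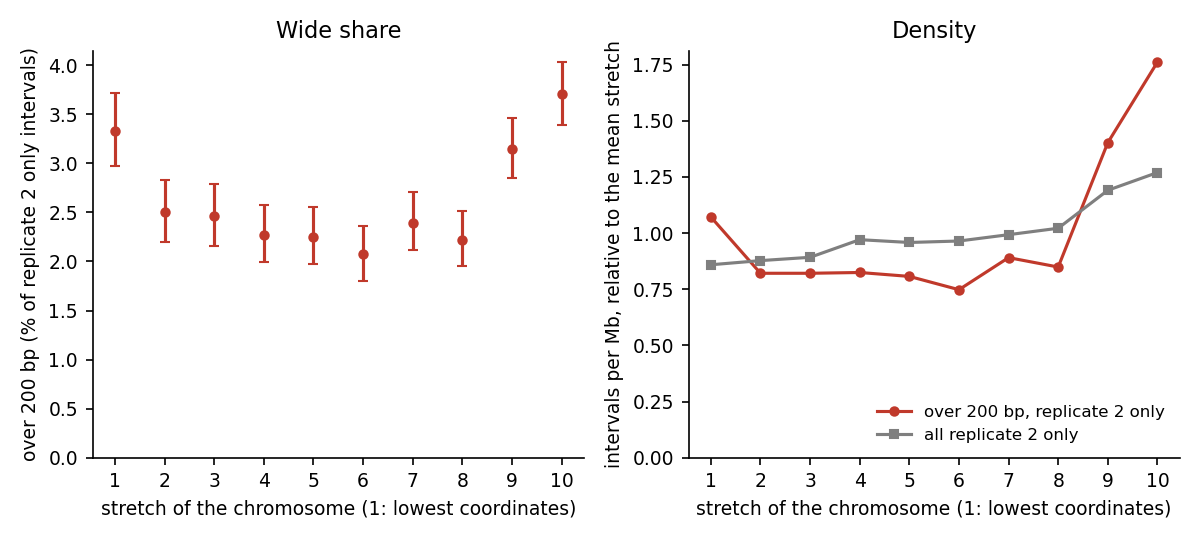
Left, percent of replicate 2 only intervals over 200 bp wide in each of 10 equal stretches of the 19 autosomes (stretch 1 holds the lowest coordinates), with 95% exact binomial intervals. Right, density of the members and of all replicate 2 only intervals in the same stretches, relative to the mean stretch. The wide share falls from 3.33% in stretch 1 to 2.07% in stretch 6 and climbs to 3.70% in stretch 10.

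All 19 autosomes held members, from 94 on chromosome 19 to 219 on chromosome 1. Per Mb they ranged from 0.970 on chromosome 7 to 1.62 on chromosome 19, around 1.19 over all autosomes. As a share of the replicate 2 only intervals they ranged from 2.34% (2.01 to 2.69%) on chromosome 2 to 3.46% (2.81 to 4.22%) on chromosome 19, with chromosomes 13 (3.08%) and 16 (3.06%) next. Shorter chromosomes had the larger share. Across the 19 autosomes Pearson's r between the length spanned and the share was -0.71 and Spearman's rho -0.73, and r was -0.61 without the 2 lengths farthest from the median. The points come from 1 library, and the correlation is given as a description. Median widths differed little, from 255 bp on chromosome 7 to 282.5 bp on chromosome 6, and median scores lay between 464 and 605 except on chromosome 15, where the 111 members had a median of 727.

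Chromosome X, which the rule leaves out, had few intervals of this kind. There 22 of 4389 replicate 2 intervals were over 200 bp (0.501%, 0.314 to 0.758%), against 2.95% (2.85 to 3.05%) on the autosomes, and all 22 lacked an overlap with replicate 1. The median score of all replicate 2 intervals was 129 on both, while scores of 300 or more made up 6.88% on chromosome X and 9.89% on the autosomes. The sequences not placed on a chromosome had 4 wide intervals of 1654 (0.242%, 0.0659 to 0.618%), and chromosome Y had 4 of 95 (4.21%, 1.16 to 10.4%).

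Members were spread widely, with a few crowded places. Of 2425 windows of 1 Mb along the autosomes, 936 held no member, 699 held 1 and 435 held 2. The 60 windows with 5 or more held 337 members (11.7%). The most crowded was the window chr13:112000001-113000000, with 12 members among 72 replicate 2 intervals, where the median window had 44 intervals. These 12 were 204 to 503 bp wide and scored 54.1 to 854, and none of the 12 stood within 100 bp of another of them. Other replicate 2 intervals did stand that close, 13 bp from chr13:112392239-112392462 and 29 bp from chr13:112888685-112888915. Among all members, 16.9% had such a neighbour. The strongest of the 12 was chr13:112176022-112176524 (503 bp, 854), followed by chr13:112960849-112961181 (333 bp, 775) and chr13:112583987-112584227 (241 bp, 775). The nearest replicate 1 interval to any of the 12 lay 58834 bp away. Among all members, 25.2% had one within 100000 bp. Windows with 8 members began at 128000001 on chromosome 8, 45000001 on chromosome 9 and 87000001 on chromosome 17. These windows were singled out after their values were seen. Between adjacent members, gaps of at most 10000 bp occurred 137 times, and 2612 of the 2873 members had no other member within that distance.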

How the data were processed

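Per the file headers, the authors called the intervals with MACS run in Galaxy, and deposited 1 list per YY1 sample with chromosome, start, end, name and score. Per the submitters' processing notes, coordinates follow mm9. The deposited score is the authors' value and was used only within replicate 2. How it is computed, the MACS version and settings, the aligner and the use of the input: not given in the sources used here. Starts are printed counted from 1, on the premise of the BED convention. The start and end columns gave widths, edge-to-edge gaps and positions; no read counts were used, so the depth is unknown.

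Shares have 95% exact (Clopper-Pearson) intervals and differences of shares 95% Newcombe intervals. Neighbouring intervals are not independent, so these intervals may be too narrow. No test over samples was possible with 1 list on each side. Named intervals were, by rule, the 20 with the highest scores (ties to the wider), the 10 widest, the 5 nearest to replicate 1 and 5 on each side of 200 bp. The members, classes and gaps were chosen with earlier results of these data known. The counts of wide intervals with and without an overlap were tested on simulated data. So were the counts of members with a replicate 2 neighbour within 100 bp or a replicate 1 interval within 500 bp. The other computations, among them those for chromosome ends, were not tested in this way. Planned measures of motifs, GC content, repeats and genes were not run, since the reference at hand is GRCm38. Python 3.11.15, NumPy 2.4.6, pandas 2.3.3, SciPy 1.17.1, statsmodels 0.14.6 and matplotlib 3.10.9 were used.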

Additional observations from a re-analysis of the deposited data

How the results depend on the processing

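The number of members, 2873, follows the width limit: 5441 above 150 bp, 1094 above 300 bp and 237 above 500 bp. It was 6761 when replicate 2 intervals under 500 bp apart were first merged, since merging joins narrow intervals into wide ones, and within 1.5 times of 2873 under the other 5 alternatives. The surplus of members with a neighbour within 100 bp, 12.2 points, kept its direction and excluded 0 in 9 of 10 alternatives, and turned to -0.724 points (-2.74 to 1.28) against intervals above 150 and up to 200 bp. Within 1000 bp it did so in 9 of 11, turned to -2.54 points (-4.94 to -0.134) against those same intervals, and was 0.168 points after merging, which removes the short gaps. The surplus with a replicate 1 interval within 500 bp, 0.441 points, fell to 0.190 points above 500 bp in width, where few intervals were left. It turned to -0.0297 points after merging, which turns most such cases into overlaps by construction and so does not test the surplus. The difference within 10000 bp, 0.231 points (-0.352 to 0.937), did not exceed counting error, so no direction is given for it. It was 0.575 points above 150 bp (0.112 to 1.10) and -0.0755 points when only the top 25% of either list by score was kept. It turned to -0.199 points without replicate 1 intervals within 500 bp and to -0.136 points after merging. Both of these settings take out cases within 500 bp by construction. The surplus at chromosome ends kept its direction and excluded 0 in all 11 alternatives, from 0.119 to 4.14 points. The results at 100 bp, at 500 bp and at chromosome ends, and the comparisons with the intervals just below 200 bp, with like scores and with the outer 10 Mb, were chosen after seeing the data. No result could be recomputed without a replicate, since the rule needs both lists, and the alternatives for motifs and genes were not run. Without reads, a place with no replicate 1 interval cannot be called unbound there.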
